A study of Homo sapiens with 30 samples.

Results

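The difference between lung and liver metastases was measured in the same tumour subclone in 2 transplantation experiments, and the 2 organ differences were set against each other gene by gene. The comparison took 12 of the 30 libraries of the series, each made from sorted human tumour cells: 3 lung and 3 liver metastases of mice M1, M2 and M3 (here the first transplant, marked as not retransplanted), and 3 lung and 3 liver metastases of mice M4, M5 and M6 (the retransplant). It used the 33867 genes listed in both count tables, of which 18950 had enough counts to be tested. All 12 libraries were of subclone 2, a single subclone of MDA-MB-231 cells carrying LeGO (lentiviral) barcodes, grown in NOD-SCID-IL2Rγc−/− (NSG) mice. MDA-MB-231 is a human breast cancer line that lacks oestrogen and progesterone receptors, and NSG mice lack T, B and NK cells but keep macrophages and neutrophils. The labels give no age, sex or drug treatment of the mice, and for the retransplant they do not say whether the organ is where the transplanted cells came from or where they grew.

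Lung and liver offer metastatic cells different surroundings: the lung is air-filled and rich in capillaries, and the liver receives portal blood and handles haem, drugs and nutrients. Tumour cells answer such surroundings through inducible programmes. NF-kB, a transcription factor family released by inflammatory signals, switches on chemokines and IL-6; interferons switch on antiviral genes; NRF2, a sensor of oxidants, switches on haem and quinone detoxification; and BMP signals switch on the ID proteins, which block basic helix-loop-helix transcription factors. Setting the experiments side by side asks which organ differences recur in a separate set of mice.

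Chemokine and cytokine genes were among the organ differences shared by the experiments. CXCL1 and CXCL8, chemokines that draw in neutrophils, and IL6, an inflammatory cytokine, were higher in lung than in liver metastases in both experiments, and HMOX1, the enzyme that breaks down haem, was lower. The promoters of the 3 cytokine genes are shown because they share the NF-kB-type motif GGNNTTTCC (N is any base), searched on both strands and printed in capitals. Each window runs 5′ to 3′ on the plus strand, from 250 bases before to 50 bases after the start of the gene, from RefSeq (GRCh38.p14): chr4:73869143-73869442 for CXCL1, chr4:73740319-73740618 for CXCL8 and chr7:22726950-22727249 for IL6.
CXCL1: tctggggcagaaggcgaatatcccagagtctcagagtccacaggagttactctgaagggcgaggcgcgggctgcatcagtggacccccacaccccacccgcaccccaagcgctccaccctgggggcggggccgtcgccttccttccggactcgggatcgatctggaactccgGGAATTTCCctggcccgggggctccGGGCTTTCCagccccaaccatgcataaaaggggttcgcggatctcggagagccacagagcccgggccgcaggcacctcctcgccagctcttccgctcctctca
CXCL8: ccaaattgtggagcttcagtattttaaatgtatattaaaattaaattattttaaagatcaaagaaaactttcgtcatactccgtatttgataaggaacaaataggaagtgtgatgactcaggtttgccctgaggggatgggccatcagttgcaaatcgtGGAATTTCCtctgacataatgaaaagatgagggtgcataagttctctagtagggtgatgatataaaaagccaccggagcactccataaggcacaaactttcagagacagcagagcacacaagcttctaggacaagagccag
IL6: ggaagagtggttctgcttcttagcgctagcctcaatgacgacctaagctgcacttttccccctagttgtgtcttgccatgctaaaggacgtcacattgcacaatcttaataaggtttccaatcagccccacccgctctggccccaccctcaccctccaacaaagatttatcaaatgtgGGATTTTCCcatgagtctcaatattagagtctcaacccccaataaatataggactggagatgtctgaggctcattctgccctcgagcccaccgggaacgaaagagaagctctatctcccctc

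The motif began at positions -78 and -53 from the start of CXCL1, at -91 in CXCL8 and at -72 in IL6. Windows of the same length held it in 1710 of 27305 RefSeq promoters (6.26%). It was found in 14 of the 22 promoters matched for the tested members of a list of TNF and NF-kB response genes (63.6%). Of the 11 genes called in both experiments, 8 had a promoter in the table, and CXCL1, CXCL8 and IL6 were the 3 that held the motif. These matches describe the letters and do not show that a factor was bound.

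The libraries held 11807225 to 71987751 counts in the first transplant and 23406778 to 32322333 in the retransplant. Marker genes of MDA-MB-231 were high in all 12 libraries (summed level of 6 markers 5890 to 10698 CPM, counts per 1e+06 library counts), and ESR1, the oestrogen receptor gene, did not exceed 1.44 CPM. The 5 markers listed as low or absent in this line, ESR1 among them, summed to 80.7 to 156 CPM. Most of that sum was ERBB2 (66.9 to 97.6 CPM) and EPCAM (11.5 to 61.6 CPM). Among markers of other cells, ALB, the main plasma protein of hepatocytes, did not exceed 0.76 CPM. The hepatocyte markers (7 of 12 in the tables) summed to 30.3 to 92.4 CPM in lung and 29.5 to 62.4 CPM in liver of the first transplant, and to 13.4 to 27.04 CPM in lung and 37.8 to 76.5 CPM in liver of the retransplant, almost entirely through SERPINA1. SFTPC, the surfactant gene of lung alveolar cells, was at 0 in all 3 first-transplant lung libraries, but reached 0.89, 2.96 and 3.19 CPM in the retransplant lung libraries of M4, M5 and M6, against 0, 0.033 and 0 CPM in their liver libraries. The sum of the lung epithelium markers (8 of 9 in the tables) overlapped between the organs. It was 4.38 to 10.4 CPM in lung and 3.04 to 7.24 CPM in liver of the first transplant. In the retransplant it was 7.44 to 9.54 CPM in lung and 6.37 to 10.2 CPM in liver. AGER was the largest member in every library and made up most of the sum except in retransplant lung. It stood at 3.56, 3.62 and 4.26 CPM in retransplant lung and 4.70, 8.01 and 6.19 CPM in retransplant liver. NAPSA, another member, stood at 2.48, 2.23 and 0.69 CPM in retransplant lung and 1.54, 1.46 and 1.02 CPM in retransplant liver. Endothelium markers (7 of 7) summed to 13.8 to 18.5 CPM in lung and 25.7 to 37.9 CPM in liver of the first transplant. In the retransplant they summed to 20.2 to 28.8 CPM in lung and 9.37 to 23.1 CPM in liver. The organs overlapped for leukocyte markers (7 of 8) in both experiments, with sums of 22.8 CPM or less. Of these, PTPRC alone separated the retransplant organs (1.43, 1.10 and 2.74 CPM in lung, 0.30, 0.36 and 0.31 CPM in liver). In such bulk samples fewer cells of a type and less RNA per cell cannot be told apart. Each first-transplant mouse had its own sequencing run and M4 to M6 shared a single run, per the authors' sample sheet, so run and experiment cannot be told apart in levels, whereas lung and liver of a mouse always came from the same run. Organ differences are therefore given within mice, as lung minus liver on the log2 scale ± standard error (SE), with n = 3 mice an experiment, from 1 edgeR fit with a term for each mouse.

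In the first transplant 230 of the 18950 genes (1.21%) differed between lung and liver at an edgeR adjusted p under 0.05, 170 of them higher in lung (0.897%) and 60 lower (0.317%). In the retransplant 30 genes (0.158%) did, 26 higher in lung (0.137%) and 4 lower (0.0211%). The difference between the 2 organ differences passed for 0 genes (0%), with a smallest adjusted p of 0.0837, although 2606 genes (13.8%) had an unadjusted p under 0.05. The count depended on the method: limma voom with sample quality weights also called 0 genes (2396 at an unadjusted p under 0.05), an edgeR fit of all 24 samples of both experiments called 14 (0.071%), edgeR without a filter on low counts called 417, and DESeq2 called 587 of the 16378 genes with an adjusted p (3.58%). Among those 587 genes of DESeq2, 498 had organ differences of opposite sign, which follows in part from choosing genes whose 2 organ differences differ. In the edgeR fit of the 12 libraries 8650 of all 18950 genes had opposite signs. Genes called in both organ comparisons with opposite signs numbered 15 with DESeq2 and 9 in edgeR without a filter. There was 1 such gene each in edgeR with another library scaling (RLE), with all 24 samples and without M2. In the main edgeR fit of the 12 libraries, with 0 calls for the difference, no organ difference was called lost, gained or reversed. The fit of all 24 samples had 6 lost and 3 gained, the fit without a filter 271 and 65, and DESeq2 378 and 80. Lost and gained genes were called in 1 experiment and for the difference between them. Genes called for the difference with opposite signs numbered 11 with all 24 samples, 342 without a filter and 498 with DESeq2. A gene can be counted both there and as lost or gained. In the fit of the 12 libraries 11 genes were called in both experiments with the same sign (0.058%), 219 in the first transplant alone and 19 in the retransplant alone.

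**Figure D1:**
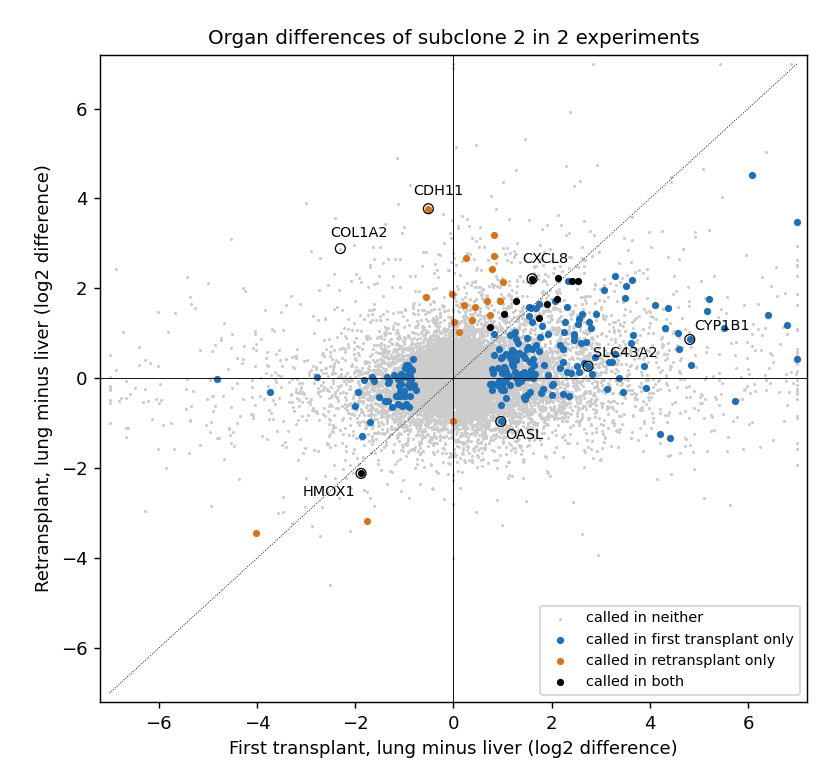
Organ difference (lung minus liver, log2) of each of the 18950 genes in the first transplant (horizontal axis) and in the retransplant (vertical axis), with values beyond 7 drawn at 7. Black points are the 11 genes called in both experiments, 10 of them above 0 on both axes and HMOX1 below 0 on both; blue and orange points are the 219 and 19 genes called in 1 experiment, and ringed points are named.

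Signs were kept more widely than calls. Of the 230 genes called in the first transplant, 171 (74.3%) had a retransplant difference of the same sign and 59 of the opposite sign, whereas the share over all genes tested was 54.4%. The sign was kept by 131 of the 170 genes higher in first-transplant lung and by 40 of the 60 lower ones. An unadjusted p under 0.05 in the retransplant was reached by 77 of the genes with the same sign and by 6 with the opposite sign; over all genes the background was 9.66%. The sizes were smaller: the 170 higher genes had a median difference of 1.63 in the first transplant, where they had been chosen for being large, and 0.44 in the retransplant, and the 60 lower genes had medians of -1.05 and -0.11.

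Single mice gave the same picture with some spread. The sign of the first transplant was seen in M4 for 165 of the 230 genes, in M5 for 138 and in M6 for 180. Over all 18950 genes it was seen in M4 for 9893, in M5 for 9167 and in M6 for 11084. In all 3 retransplant mice together 100 genes had the same sign (22.9% over all genes) and 18 the opposite sign (17.6% over all genes). Of the 30 genes called in the retransplant, 27 (90.0%) had the same sign in the first transplant, 21 of them at an unadjusted p under 0.05 (21.0% over all genes), and 0 of the 3 with the opposite sign reached it. Across the 18950 genes, which are not independent replicates, the organ differences of 2 mice correlated at 0.13 to 0.17 within the first transplant (3 pairs), at 0.28 to 0.38 within the retransplant (3 pairs) and at -0.02 to 0.24 between the experiments (9 pairs, median 0.08).

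CXCL8 was among the most abundant of the genes called in both experiments. It stood at 171, 303 and 375 CPM in the lung and 64.6, 69.0 and 156 CPM in the liver of M1, M2 and M3. In the retransplant it stood at 490, 666 and 796 CPM in the lung and 112, 167 and 138 CPM in the liver of M4, M5 and M6. Lung libraries lay above liver libraries with no overlap in either experiment, by 1.60 ± 0.20 in the first transplant (edgeR adjusted p = 0.0146) and 2.21 ± 0.21 in the retransplant (adjusted p = 0.00826). The first-transplant difference was 0.61 smaller, with a 95% interval of -1.24 to 0.01 (unadjusted p = 0.0538, adjusted p = 0.373).

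CXCL1 rose by 2.54 ± 0.21 in first-transplant lung and 2.16 ± 0.21 in retransplant lung (edgeR adjusted p = 0.00503 and 0.00826). Its levels were 33.2, 131 and 69.5 CPM in the lung and 6.16, 15.1 and 16.7 CPM in the liver of the first transplant, and 61.2, 88.8 and 148 CPM in the lung and 13.8, 20.9 and 31.2 CPM in the liver of the retransplant. Organs did not overlap in either experiment, and the difference between the experiments was 0.38 (95% interval -0.25 to 1.01). IL6 stood at 94.3, 398 and 350 CPM in the lung and 23.4, 92.2 and 117 CPM in the liver of M1 to M3, and at 168, 320 and 200 CPM in the lung and 82.1, 90.8 and 47.2 CPM in the liver of M4 to M6. The lung of M1 lay below the liver of M3, but lung exceeded liver within every mouse, by 1.90 ± 0.22 in the first transplant and 1.65 ± 0.22 in the retransplant (adjusted p = 0.0125 and 0.0252).

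ID2 and ID3, inhibitors of basic helix-loop-helix factors and targets of BMP signals, rose in lung in both experiments. For ID2 the organ differences were 2.11 ± 0.24 and 1.77 ± 0.21, in the first transplant from libraries of only 5.04 to 9.62 CPM in lung and 0.80 to 2.65 CPM in liver, and in the retransplant from 40.7 to 67.4 CPM in lung and 10.4 to 21.7 CPM in liver. For ID3 they were 1.28 ± 0.22 and 1.72 ± 0.22. ID1 rose in first-transplant lung (1.41 ± 0.23, adjusted p = 0.0271) and stood at 0.52 ± 0.22 in the retransplant (adjusted p = 0.486).

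The other genes called higher in lung in both experiments were KRT81, a hair-type keratin (2.41 ± 0.27 and 2.17 ± 0.27), ADAMTS1, a secreted protease of matrix proteoglycans (2.13 ± 0.32 and 2.23 ± 0.32), and FAM43A (1.73 ± 0.17 and 1.35 ± 0.17). PLPP3, which dephosphorylates lysophosphatidic acid, differed by 1.04 ± 0.15 and 1.42 ± 0.16, and SERTAD1, a regulator of cyclin-dependent kinase 4 and E2F, by 0.75 ± 0.15 and 1.14 ± 0.15. All 6 mice had the sign of the call for each of the 11 genes, against 8.73% of all genes with 1 sign in 6 mice; this follows in part from the call itself.

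HMOX1 was the only gene called lower in lung in both experiments, under edgeR with mouse terms. It stood at 10.5, 9.41 and 6.10 CPM in the lung and 46.3, 24.5 and 27.4 CPM in the liver of M1 to M3. In the retransplant it stood at 9.47, 7.40 and 10.9 CPM in the lung and 66.6, 18.4 and 49.9 CPM in the liver of M4 to M6. Liver libraries all lay above lung libraries; the gene fell by 1.88 ± 0.29 in first-transplant lung and by 2.12 ± 0.29 in retransplant lung (adjusted p = 0.0259 and 0.0302), and the interval of the difference between the experiments ran from -0.66 to 1.13.

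**Figure D2:**
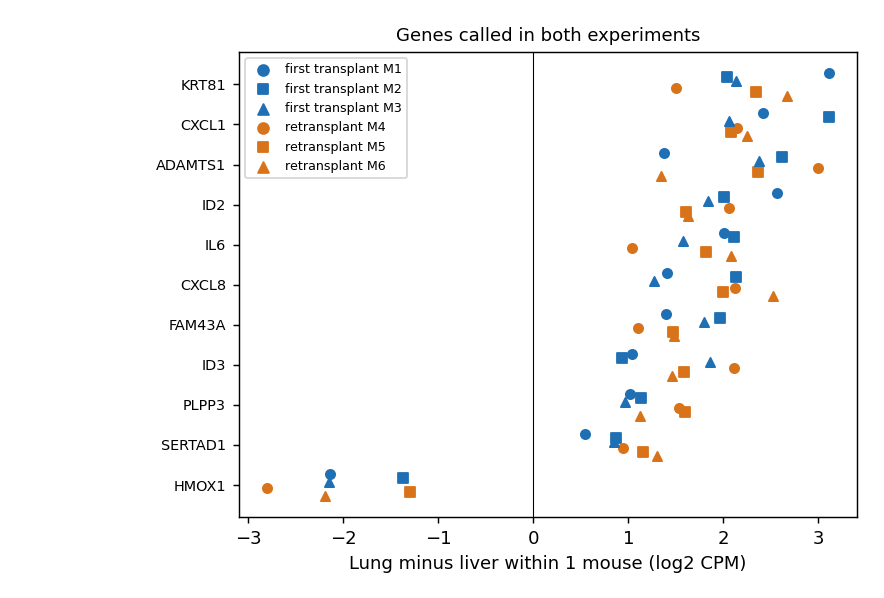
Lung minus liver (log2 CPM, prior count 2) in each mouse for the 11 genes called in both experiments; blue symbols are M1 to M3 of the first transplant and orange symbols M4 to M6 of the retransplant. Every symbol lies to the right of 0 except those of HMOX1, which all lie to its left.

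**Figure D3:**
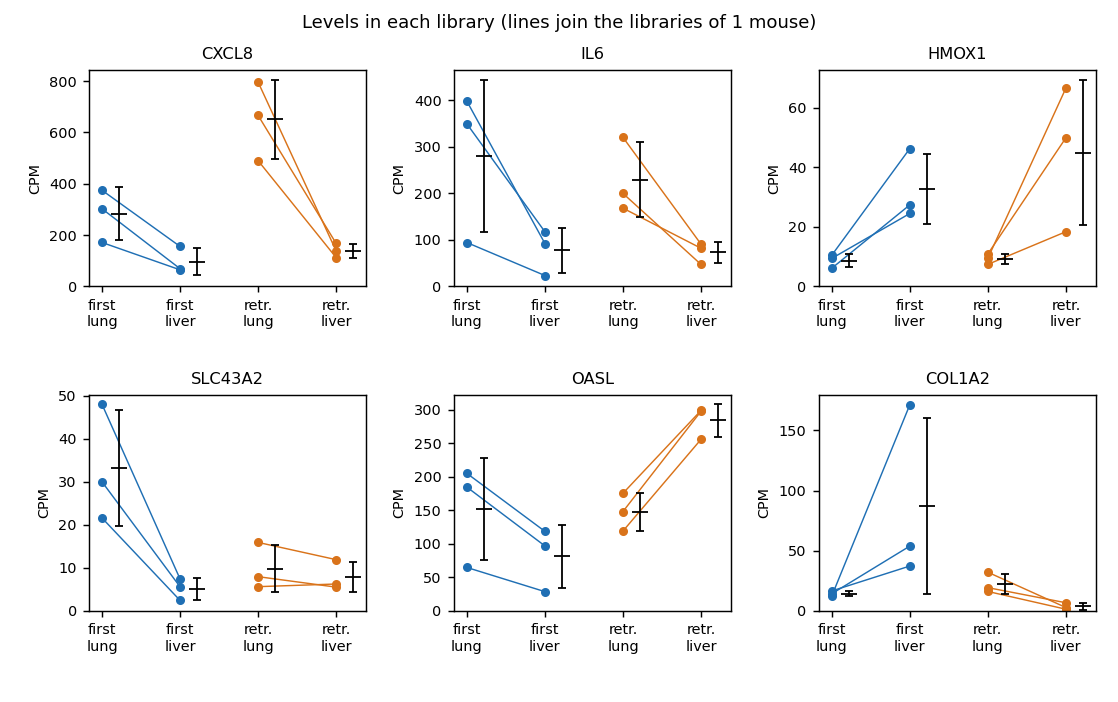
Levels (CPM) of 6 genes in lung and liver of the first transplant (blue) and the retransplant (orange); lines join the libraries of a mouse, and black bars give mean ± SD (n = 3). CXCL8, IL6 and HMOX1 have lines of the same slope in both experiments, the slopes of OASL and COL1A2 are opposite, and the organs of SLC43A2 are separate in the first transplant and overlap in the retransplant.

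The calls rested on few mice. Without M1, M2, M3, M4, M5 or M6 the first transplant had 14, 5, 1, 90, 229 and 143 called genes, the retransplant 25, 38, 2, 0, 1 and 8, and 6, 2, 1, 0, 0 and 4 genes were called in both with the same sign. Each such fit also has fewer residual degrees of freedom than the 4 of the full one. Of the 11 genes called in both experiments, 11 were so called with DESeq2 (116 in all), 8 with all 24 samples, 5 with limma voom, and 3, 1, 1, 0, 0 and 4 without M1, M2, M3, M4, M5 or M6.

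The genes nearest to a call for a difference between the experiments are described next; their adjusted p did not pass in the edgeR fit of the 12 libraries. OASL, an interferon-induced antiviral protein of the oligoadenylate synthetase family (chr12:121019111-121039242, minus strand, GRCh38), had the smallest p. It stood at 64.7, 185 and 205 CPM in the lung and 28.5, 96.8 and 119 CPM in the liver of M1 to M3. In the retransplant it stood at 176, 148 and 119 CPM in the lung and 299, 298 and 256 CPM in the liver of M4 to M6. Lung was above liver in every first-transplant mouse and below it in every retransplant mouse. The organ differences were 0.96 ± 0.15 (adjusted p = 0.0271) and -0.96 ± 0.15 (adjusted p = 0.0523), and they differed by 1.93 ± 0.22 (95% interval 1.44 to 2.41, adjusted p = 0.0837, DESeq2 adjusted p = 2.42e-12).

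COL1A2, a chain of type I collagen (chr7:94394561-94431232, plus strand), had the widest gap of the named genes lower in the first transplant. It stood at 14.1, 12.3 and 16.5 CPM in the lung and 53.8, 171 and 37.2 CPM in the liver of M1 to M3, and at 19.2, 16.04 and 32.05 CPM in the lung and 6.64, 1.27 and 2.69 CPM in the liver of M4 to M6. All 3 first-transplant livers lay above the 6 lung libraries, and all 3 retransplant livers lay below them. The organ differences were -2.30 ± 0.52 (adjusted p = 0.0599) and 2.89 ± 0.54 (adjusted p = 0.088), with a difference of -5.19 ± 0.75 (95% interval -6.86 to -3.51, adjusted p = 0.176). In the edgeR fit of all 24 samples this difference passed (adjusted p = 0.000337), as it did with DESeq2 (adjusted p = 6.51e-05).

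COL1A1 and COL3A1 were higher in lung in every mouse, so they shared the sign of COL1A2 in the retransplant but not in the first transplant. COL1A1 stood at 19.7, 77.6 and 80.6 CPM in lung and 6.93, 16.3 and 27.6 CPM in liver of M1 to M3. In M4 to M6 it stood at 31.4, 60.6 and 41.7 CPM in lung and 13.6, 41.1 and 15.0 CPM in liver. COL3A1, a collagen of fibroblasts, stood at 8.34, 17.7 and 12.7 CPM in retransplant lung libraries and 0.81, 0.43 and 0.65 CPM in their liver libraries, beside 0.83, 2.52 and 0.68 CPM in first-transplant lung and 0, 1.24 and 0.019 CPM in first-transplant liver. The fibroblast, stellate and smooth muscle markers (11 of 11 in the tables) summed to 37.5 to 123 CPM in first-transplant lung. In first-transplant liver the sum was 24.9 to 66.6 CPM. In the retransplant it was 58.3 to 102 CPM in lung and 34.9 to 88.2 CPM in liver. COL1A1 made up most of the sum in every lung library, but not in any liver library. PDGFRB, another member, was higher in liver than in lung in M1, M4 and M5, and lower in M2, M3 and M6. It stood at 6.46, 8.001 and 13.51 CPM in retransplant lung and 16.02, 27.07 and 8.23 CPM in retransplant liver. DCN, a marker of fibroblasts, did not exceed 0.413 CPM in any of the 12 libraries. HBB, a red blood cell gene, stood at 0.92, 3.80 and 8.24 CPM in retransplant lung, and at 0.37 CPM or less in the other 9 libraries. The other red blood cell markers did not follow it throughout. HBA1 and HBA2 did not exceed 0.073 CPM in any library. ALAS2 stood at 1.29, 0.20 and 0.25 CPM in first-transplant lung and 0.095, 0.66 and 1.42 CPM in retransplant lung. In retransplant liver ALAS2 stood at 0.21, 0.83 and 0.34 CPM. The part of fibroblasts or red blood cells in the COL1A2 difference was not tested.

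SLC43A2, a transporter of large neutral amino acids, rose in first-transplant lung by 2.74 ± 0.26 (adjusted p = 0.00783) and stood at 0.27 ± 0.25 in the retransplant (adjusted p = 0.845). Its levels were 21.6, 29.98 and 48.0 CPM in lung and 2.40, 5.57 and 7.39 CPM in liver of the first transplant, and 7.92, 15.9 and 5.60 CPM in lung and 5.49, 11.9 and 6.22 CPM in liver of the retransplant. Organs did not overlap in the first transplant and did in the retransplant, and the difference between the experiments was 2.47 ± 0.35 (95% interval 1.69 to 3.25, adjusted p = 0.176, and 0.0409 with all 24 samples). MECOM, a zinc finger transcription factor, fell by 1.36 ± 0.16 in first-transplant lung and stood at 0.04 ± 0.16 in the retransplant, with a difference of -1.40 ± 0.22.

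EIF4A1, an RNA helicase of translation initiation, had organ differences of 0.98 ± 0.15 and -0.59 ± 0.15, and ISG20, an interferon-induced exonuclease, of 0.55 ± 0.15 and -0.83 ± 0.15. ITM2C, a membrane protein, had differences of -0.82 ± 0.14 and 0.42 ± 0.14. For these 3 genes, as for OASL and COL1A2, all first-transplant mice had 1 sign and all retransplant mice the other. LINC01583, a long non-coding RNA, had differences of 4.21 ± 0.75 and -1.24 ± 0.50; the first value is a fitted one that rests on livers at 0, 0 and 0.107 CPM.

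EHF, an epithelial ETS-family transcription factor, and CDH11, a mesenchymal cadherin, rose in retransplant lung and were not called in the first transplant. EHF stood at 50.8, 33.1 and 41.6 CPM in lung and 41.9, 52.8 and 97.7 CPM in liver of the first transplant, and at 49.9, 42.2 and 55.0 CPM in lung and 20.1, 11.4 and 11.7 CPM in liver of the retransplant. CDH11 stood at 107, 53.4 and 45.9 CPM in lung and 103, 92.8 and 79.4 CPM in liver of the first transplant, and at 34.1, 39.1 and 42.8 CPM in lung and 1.07, 11.1 and 1.41 CPM in liver of the retransplant. In both genes the organs overlapped in the first transplant and were separate in the retransplant. The organ differences were -0.55 ± 0.28 and 1.81 ± 0.28 for EHF and -0.51 ± 0.47 and 3.77 ± 0.57 for CDH11; that of CDH11 between the experiments passed when M5, the highest of the 3 retransplant livers, was left out (adjusted p = 0.00134).

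**Figure D4:**
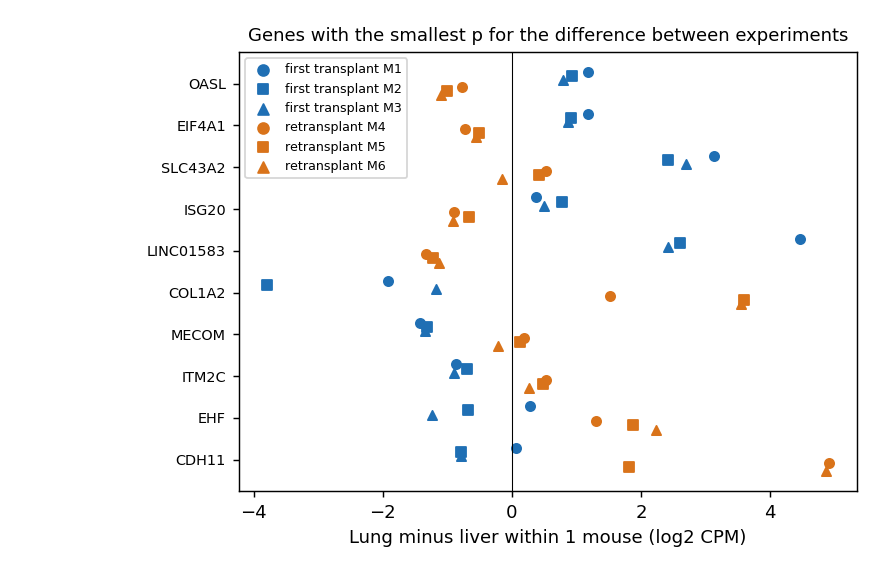
Lung minus liver (log2 CPM, prior count 2) in each mouse for the 5 genes of smallest p in each direction of the difference between the experiments; blue symbols are M1 to M3 of the first transplant and orange symbols M4 to M6 of the retransplant. The colours do not overlap within a gene, as the rule for naming these genes required; this held for 10.3% of all genes with the first transplant higher and 10.6% with it lower.

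Other genes were called in the first transplant alone, which does not show that they differed between the experiments. Those with the largest rises in lung were NKD1, an inhibitor of Wnt signalling (5.21 ± 0.99 and 1.76 ± 0.86), CMPK2, an interferon-induced mitochondrial nucleotide kinase (5.16 ± 1.04 and 1.502 ± 0.87), CYP1B1, an oxidising enzyme of steroids and aromatic hydrocarbons (4.81 ± 0.77 and 0.86 ± 0.65), NNMT, nicotinamide N-methyltransferase (4.59 ± 0.91 and 0.66 ± 0.97), and DIO2, which activates thyroid hormone (4.57 ± 0.66 and 1.01 ± 0.52). First-transplant livers were at 0 to 0.32 CPM for NKD1, 0 to 1.24 for CMPK2, 0 to 2.74 for NNMT and 0.06 to 0.84 for DIO2, so these sizes rest on low levels. In M4, M5 and M6 the organ difference was 3.73, -0.24 and 2.20 for NKD1 and 3.47, -1.69 and 0.58 for NNMT. In the retransplant CYP1B1 stood at 76.4, 84.4 and 88.0 CPM in lung and 22.4, 181 and 26.1 CPM in liver of M4, M5 and M6. In the first transplant it stood at 18.7, 34.98 and 44.2 CPM in lung and 0.62, 3.46 and 0.38 CPM in liver. The liver of M5 exceeded every other library, and the organ difference was 1.77 in M4, -1.10 in M5 and 1.75 in M6.

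Those with the largest falls were ABI3BP, a matrix protein (-3.74 ± 0.48 and -0.30 ± 0.35), PTGFR, the prostaglandin F receptor (-2.77 ± 0.55 and 0.02 ± 0.45), PDE2A, a cyclic nucleotide phosphodiesterase (-2.01 ± 0.25 and -0.61 ± 0.23), EDNRA, an endothelin receptor (-1.95 ± 0.35 and -0.31 ± 0.33), and AKR1C3, an aldo-keto reductase of steroids (-1.86 ± 0.23 and -1.29 ± 0.22). AKR1C3 came close to a call in the retransplant (adjusted p = 0.0626) and was lower in lung in all 6 mice, with a difference between the experiments of -0.57 (95% interval -1.27 to 0.12); reads may be shared with its close relatives AKR1C1 and AKR1C2.

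In all, 18 of the 230 genes called in the first transplant had the opposite sign in all 3 retransplant mice, a smaller share than the 17.6% over all genes. They included OASL, EIF4A1, ITM2C and LINC01583, the transcription coactivator PPARGC1B (4.41 ± 0.70 and -1.33 ± 0.48), the replicative helicase subunit MCM2 (-0.97 ± 0.16 and 0.30 ± 0.16), and the RNA-processing genes SRSF5 (1.04 ± 0.18 and -0.25 ± 0.18) and CCNL1 (0.99 ± 0.18 and -0.25 ± 0.18). PPARGC1B, MCM2, SRSF5 and CCNL1 were picked from the 18 after their values were seen. The retransplant differences of these 4 genes did not pass the test. The first-transplant value of PPARGC1B is a fitted one that rests on M2 and M3, since it was at 0 in both organs of M1. Its livers stood at 0.0538 and 0.0895 CPM in M2 and M3, and its highest group mean was 4.53 CPM, below the 5 CPM of the naming rule.

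The 19 genes called in the retransplant alone were mostly higher in lung. Besides CDH11 the largest were SLC30A10, a manganese exporter (0.83 ± 0.37 in the first transplant and 3.18 ± 0.42 in the retransplant), RASGRP3, an activator of Ras-type GTPases (0.82 ± 0.33 and 2.71 ± 0.34), HLA-DRA, an MHC class II chain (0.25 ± 0.37 and 2.68 ± 0.40), and GDF15, a stress-induced cytokine (0.78 ± 0.34 and 2.43 ± 0.37). Lower in retransplant lung were LCN1 and OBP2A, secreted lipocalins (-4.03 ± 0.83 and -3.45 ± 0.42 for LCN1, -1.75 ± 0.58 and -3.18 ± 0.35 for OBP2A), and DCUN1D4 (-0.01 ± 0.15 and -0.95 ± 0.15), a cofactor of cullin neddylation. The first-transplant value of LCN1 is a fitted one that rests on M2, since it was at 0 in both organs of M1 and M3. OBP2A stood at 15.7, 0.41 and 8.68 CPM in lung and 124, 9.31 and 51.6 CPM in liver of M4, M5 and M6, and did not exceed 1.52 CPM in the first transplant; its close copy OBP2B may share its reads.

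Inflammatory genes had organ differences of the same direction in both experiments. In the TNF and NF-kB list, 6 of 24 tested members rose in first-transplant lung (0.897% over all genes) and 4 in retransplant lung (0.137% over all genes), with CXCL1, CXCL8 and IL6 in common; CXCL3, NFKB2 and TNFAIP2 completed the first 6, and TNFAIP3, which shuts NF-kB signalling off, was the fourth (0.95 ± 0.27 and 1.71 ± 0.27). Members had the same sign in 23 of 24 cases (54.4% over all genes), with medians of 1.09 and 1.32 (0.03 and -0.01 over all genes). The exception was LTB (-4.05 and 0.98). NFKB2, an NF-kB subunit (1.07 ± 0.20 and 0.14 ± 0.20), and TNFAIP2 (1.85 ± 0.25 and 0.31 ± 0.24) had an unadjusted p of 0.00887 and 0.0011 for the difference between the experiments.

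Of 14 tested genes linked to lung metastasis of MDA-MB-231, 4 rose in first-transplant lung (0.897% over all genes), namely CXCL1, KRT81, ID1 and ANGPTL4, an inhibitor of lipoprotein lipase. In retransplant lung 2 rose (0.137% over all genes), CXCL1 and KRT81. The medians were 1.38 in the first transplant, with 0.735 without M2, and 1.28 in the retransplant, with 0.765 without M5. LTBP1, a carrier of latent TGF-beta, was the member of opposite sign (-0.90 and 1.19), and its difference between the experiments passed in the fit of all 24 samples (adjusted p = 0.0409). In the list of NRF2 targets HMOX1 and AKR1C3 fell in first-transplant lung and HMOX1 in retransplant lung, against 0.317% and 0.0211% lower over all genes. The medians over 14 genes were -0.42 in the first transplant and -0.44 in the retransplant; the first was -0.63 without M1, and the second -0.80 without M5 and -0.20 without M6. The list of ID, BMP and TGF-beta genes had 5 of 18 higher in first-transplant lung, namely ID1, ID2, ID3, BAMBI and TGFB2 (0.897% over all genes), and 3 in retransplant lung, namely ID2, ID3 and BMP4 (0.137% over all genes). BMP4, the ligand, stood at 141, 229 and 278 CPM in lung and 119, 120 and 152 CPM in liver of the first transplant, and at 157, 264 and 91.2 CPM in lung and 43.9, 68.8 and 34.7 CPM in liver of the retransplant. BAMBI, a decoy receptor for this family, differed by 0.997 ± 0.17 in the first transplant and -0.13 ± 0.17 in the retransplant.

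Interferon response genes had larger median differences in the first transplant. There 10 of 28 members rose in lung (0.897% over all genes): IFI44L, IFI6, IFI27, ISG15, MX1, MX2, OASL, IRF9, XAF1 and CMPK2. In the retransplant 0 members (0.158% over all genes) passed in the same edgeR fit, 1 with RLE scaling, 3 without a filter on low counts, 3 with DESeq2 and 3 with limma voom. Each of these other settings also called more of all genes in the retransplant. Without M1, M2, M3, M4 or M6 the first-transplant count was 0, 1, 0, 8 and 6. The median difference was 0.85 in the first transplant and 0.22 in the retransplant, and 12 of 28 members (42.9%) had an unadjusted p under 0.05 for the difference between the experiments, with 13.8% over all genes. ISG15, a ubiquitin-like antiviral protein, stood at 240, 491 and 408 CPM in lung and 99.0, 104 and 206 CPM in liver of the first transplant, where organs did not overlap. In the retransplant it stood at 301, 282 and 228 CPM in lung and 363, 265 and 165 CPM in liver, where they did, and the experiments differed by 1.41 ± 0.34 (95% interval 0.65 to 2.16, adjusted p = 0.193). Retransplant medians of the list were 0.49, 0.07 and 0.23 in M4, M5 and M6, and those of the first transplant 0.44, 1.01 and 0.79 in M1, M2 and M3; the fitted retransplant median was 0.05 without M4.

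Mitotic genes had a negative median organ difference in the first transplant and a slightly positive one in the retransplant. All 25 members had a negative difference in the first transplant, where TOP2A, the DNA topoisomerase of dividing cells, was the single call (1 of 25, adjusted p = 0.0173; 0.317% over all genes). With RLE scaling 4 members were called there, with all 24 samples 5, and with DESeq2 or without a filter 7. Each of these settings also called more of all genes there. In the retransplant 17 members had a positive difference and 8 a negative one, and 0 passed with edgeR, DESeq2 or limma voom. The medians were -0.56 and 0.16 (0.03 in the retransplant without M5), and 14 members (56.0%) had an unadjusted p under 0.05 for the difference between the experiments. TOP2A stood at 207, 130 and 147 CPM in lung and 468, 409 and 323 CPM in liver of the first transplant, and at 362, 292 and 287 CPM in lung and 343, 271 and 369 CPM in liver of the retransplant. Its organs were separate in the first transplant (-1.32 ± 0.18) and overlapped in the retransplant (-0.06 ± 0.17), and the experiments differed by -1.26 ± 0.25 (95% interval -1.81 to -0.72, adjusted p = 0.176).

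The retransplant mice did not act alike in this list. Members higher in lung numbered 1, 0 and 3 of 25 in M1, M2 and M3, and 21, 24 and 9 in M4, M5 and M6, with medians of -0.43, -0.71 and -0.34 and of 0.12, 0.40 and -0.11. Genes of DNA replication had medians of -0.28 in the first transplant and 0.19 in the retransplant over 20 members. Of these MCM2 alone was called, lower in first-transplant lung (0.317% over all genes). MCM2 stood at 41.9, 22.3 and 27.1 CPM in lung and 80.2, 52.2 and 45.1 CPM in liver of the first transplant, and at 52.0, 49.8 and 62.2 CPM in lung and 42.2, 37.0 and 55.8 CPM in liver of the retransplant. Without M5 the retransplant median of this list was 0.00.

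Of 12 heat shock genes 0 passed in either experiment in the edgeR fit of the 12 libraries, whereas in the retransplant edgeR without a filter called 3, DESeq2 5 and limma voom 6. Those 3 fits also called more of all genes in the retransplant, and their totals are given near the end. The medians were -0.07 in the first transplant, which changed sign to 0.03 without M2, and 0.61 in the retransplant, which was 0.31 without M4. HSPA1A, the inducible HSP70, stood at 81.1, 55.5 and 75.8 CPM in lung and 137, 87.3 and 63.2 CPM in liver of the first transplant, and at 597, 411 and 655 CPM in lung and 206, 250 and 344 CPM in liver of the retransplant. Organs overlapped in the first transplant and were separate in the retransplant; its reads may be shared with the near-identical HSPA1B.

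The 13 protein-coding mitochondrial transcripts were positive in both experiments, with medians of 1.21 and 0.55 (the second was 0.82 without M4 and 0.34 without M6). In the first transplant 7 passed (1.21% over all genes), and 0 without M1, M2 or M3. In the retransplant 0 passed (0.158% over all genes), against 2 with DESeq2 and 2 with limma voom, which also called more of all genes. Their list medians were 0.85, 1.38 and 1.52 in M1, M2 and M3, and -0.02, 0.66 and 1.07 in M4, M5 and M6. The share of all counts that was mitochondrial was higher in lung by 2.65 to 5.34 percentage points in 5 mice and lower by 0.45 points in M4 (-0.45). MT-ND6 differed by 1.74 ± 0.28 and 1.65 ± 0.28, but it lies on the strand opposite to MT-ND5 and MT-CYB transcripts, and the libraries do not keep the strand. Whether this share reflects RNA quality was not tested.

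**Figure D5:**
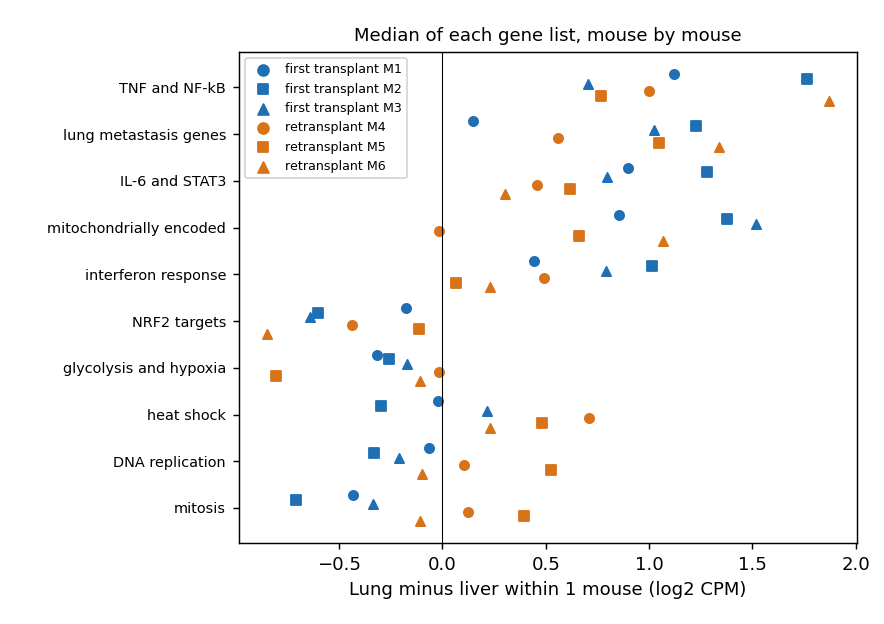
Median lung minus liver difference (log2 CPM, prior count 2) of 10 gene lists in each mouse; blue symbols are M1 to M3 of the first transplant and orange symbols M4 to M6 of the retransplant. The TNF and NF-kB list lies to the right of 0 in all 6 mice and the NRF2 list to its left, while the mitosis list lies to the left in M1, M2, M3 and M6 and to the right in M4 and M5.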

How the data were processed

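Per the labels' protocols, RNA of sorted subclone 2 cells was made into libraries with an Illumina TruSeq kit (v2), which does not keep the strand. bcl2fastq 2.15.0.4, cutadapt, STAR, featureCounts and GRCh38 are named, without their roles, per the submitters' processing notes. The authors deposited whole-number counts of reads for each gene, in tables of 38526 and 36291 genes that share 33867; the shared genes held over 99.99% of the counts of each library. What follows was computed from them. Genes were kept with filterByExpr (18950), scaled by TMM and fitted in edgeR 4.0.16 (R 4.3.3) with a term for each of 6 mice and an organ term for each experiment, on 4 residual degrees of freedom; the common biological coefficient of variation was 0.308. The quasi-likelihood F test was adjusted by Benjamini-Hochberg over all genes, with a threshold of 0.05. SE is the size of the log2 difference divided by the square root of F. Library levels are CPM scaled by TMM, except those of markers of other cells, which use total counts; mouse-wise differences use log2 CPM with a prior count of 2.

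Per the labels, a number marks 1 mouse, and lung and liver deviations from the group means correlated at 0.17 to 0.48. Alternatives were DESeq2 1.42.0, limma 3.58.1, RLE scaling, no low-count filter, no mouse term, all 24 samples, each experiment alone and leaving out each mouse. Code was tested on simulated data.

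The rule for naming genes asked for a symbol, an adjusted p below 0.05 and a mean of at least 5 CPM in a group: up to 10 each way called in both experiments with 1 sign in all 6 mice, up to 5 each way called in 1 experiment, and, as no gene passed for the difference between the experiments, the 5 each way with the smallest p whose mice did not overlap. Members of the lists could also be named. The comparison and the lists were chosen with earlier results of these data known. CCL2, POSTN and IL13RA2 had too few counts, and SOD2, EDN3 and ECE2 were not matched. Replicates are separate mice. The result for 1 single gene is not reported here.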

Additional observations from a re-analysis of the deposited data

Results flagged for a closer look

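In 11 of the genes named above all 3 first-transplant mice had an organ difference of 1 sign and all 3 retransplant mice the other; the difference between the experiments did not pass the edgeR test of the 12 libraries for any of them (adjusted p = 0.0837 for OASL, 0.357 for AGER and 0.176 for the others). OASL had a first minus retransplant difference of 1.93 on the log2 scale. That of EIF4A1 was 1.57, that of ISG20 was 1.38, that of SRSF5 was 1.29 and that of CCNL1 was 1.24. LINC01583 differed by 5.45, with first-transplant livers at or near 0. AGER, a lung epithelium marker of a few CPM, differed by 1.0001. COL1A2 differed by -5.19, LTBP1 by -2.09, MCM2 by -1.27 and ITM2C by -1.24. Over all 18950 genes, 555 had the first transplant positive and the retransplant negative in all mice, and 527 the reverse.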

How the results depend on the processing

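Without the replicate block (no mouse term) 0 genes were called in the first transplant, 0 in the retransplant, 0 in both and 0 for the difference between the experiments, so every call rests on the pairing within mice. In the order first transplant, retransplant, both with the same sign, and difference, DESeq2 called 1990, 436, 116 and 587 genes, edgeR without a filter 1499, 376, 109 and 417, and all 24 samples 659, 55, 16 and 14. In that order limma voom called 54, 494, 19 and 0. Each experiment alone gave 84 retransplant calls. The same-sign share of first-transplant calls was 61.8% with DESeq2, 62.9% without a filter and 90.7% with limma voom; that of retransplant calls was 70.6%, 71.8% and 69.8%, and 65.5% with all 24 samples. The cause of these shifts was not tested. Leaving out each mouse gave 1 to 229 first-transplant calls, 0 to 38 retransplant calls, 0 to 6 in both with the same sign and 0 to 1 for the difference, with shares of 68.5% to 100% and of 0% to 100%. None of the called differences of named genes reversed. With 3 mice a group on 4 residual degrees of freedom, a difference that missed the threshold may still exist, and for genes of few counts only large ones were detectable.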

Other observations

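Among the retransplant-only calls not described above, LPAR1, a receptor for lysophosphatidic acid, had organ differences of -0.04 ± 0.27 in the first transplant and 1.87 ± 0.28 in the retransplant (edgeR adjusted p = 0.958 and 0.0426), and SLIT2, a secreted guidance cue, of 0.22 ± 0.20 and 1.64 ± 0.20. The epithelial transcription factor SPDEF differed by 0.37 ± 0.17 and 1.29 ± 0.17, the oxytocin receptor gene OXTR by 0.43 ± 0.22 and 1.58 ± 0.23, and the prostaglandin E2 receptor gene PTGER4 by 0.75 ± 0.19 and 1.41 ± 0.20. These 5 genes were picked after their values were seen, and the difference between the experiments did not pass for any of them.

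Of 9 mucin and trefoil factor genes, secreted products of mucous epithelia, MUC5B alone was called, in the first transplant (4.10 ± 0.70, adjusted p = 0.0313, with 0.897% called higher over all genes). It stood at 9.99, 64.6 and 92.2 CPM in lung and 0.92, 4.83 and 3.13 CPM in liver of the first transplant, and at 2.99, 27.1 and 1.47 CPM in lung and 0.086, 36.0 and 0.125 CPM in liver of the retransplant. The list medians were 2.16, 2.63 and 1.76 in M1, M2 and M3, and 1.95, -0.41 and 1.70 in M4, M5 and M6, so that M5 stood apart here as it did for CYP1B1.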
